A study of Mus musculus with 6 samples.

Results

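The genes described are 9 transcription factors that steer blood progenitors towards granulocytes, monocytes and dendritic cells: the C/EBP family members Cebpa, Cebpb, Cebpd and Cebpe, the ETS factor Spi1 (PU.1), and Gfi1, Irf8, Klf4 and Id2. They were chosen by name, and all 9 were found among the 22180 genes measured, each by its brightest probe set with a single gene symbol. Expression was measured on 6 Affymetrix Mouse Gene 2.0 ST arrays of LSK cells, the bone marrow fraction without lineage markers and with Sca-1 and high c-Kit, which holds stem cells and multipotent progenitors. The arrays held 3 WT samples and 3 samples labelled Ctcf conditional KO, all from male mice aged 8 weeks. Ctcf encodes the zinc finger protein that binds insulators and the anchors of chromatin loops. Both groups were injected with tamoxifen, 2 mg daily on 3 days, and marrow was taken for sorting 24 hours later. The design names CreER mice beside the conditional knockout, but the labels call the controls WT, so whether they carried the recombinase is unknown, as are the promoter driving it, the deleted exons and whether animals were pooled. The labels call the arrays biological replicates without naming animals, and p-values then measure only the spread between these samples.

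C/EBP proteins are basic leucine zipper factors that pair with each other. C/EBP alpha opens the granulocyte and monocyte path, C/EBP epsilon acts later in granulocytes, and PU.1 is needed for both myeloid and lymphoid cells, with its dose shaping the outcome. Gfi1 is a transcriptional repressor that acts within the granulocyte branch. Irf8 and Klf4 favour monocytes and Irf8 also dendritic cells, while Id2 binds E proteins and keeps them from DNA.

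Ctcf itself stood at log2 levels of 8.35, 8.59 and 8.73 on the WT arrays and 7.58, 7.78 and 7.86 on the knockout arrays, without overlap. The knockout mean was 56.7% of WT (log2 -0.82, SE 0.13; exact two-sided permutation p = 0.1, the smallest that 3 against 3 can give; limma adjusted p = 0.104). Of the 6 measured of 7 sort and stem cell markers none was called. Kit (difference -0.22, SE 0.13) lay between 10.22 and 10.65 in WT and, without overlap, between 10.12 and 10.21 in the knockout. Slamf1 was higher (0.33, SE 0.11, limma adjusted p = 0.532) and Flt3 lower (-0.42, SE 0.16, limma adjusted p = 0.563) at an unadjusted p under 0.05, and Cd34 differed by -0.021 (SE 0.11). The part of these marker differences in the results was not tested. Marker sums, here and below, are the log2 of levels added on the linear scale, so the brightest genes of a list weigh most. For the 7 measured of 9 lineage markers that the sort removes the sum lay between 9.08 and 9.21 in WT and between 8.81 and 9.13 in the knockout. Ly6a (Sca-1) has no probe set with a single symbol and was not analysed here. The arrays give no detection call, so a level says neither that a gene is expressed nor how it compares with another gene. Array medians over all probe sets lay between 5.99 and 6.07, and the number of arrays limits the precision.

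None of the 9 factors was called between knockout and WT by limma with Benjamini-Hochberg adjustment over all genes, in which 0.0721% of genes were called. This does not show that they were unchanged, as Ctcf itself was not called either. Their adjusted p ran from 0.551 to 0.994. At an unadjusted p under 0.05 limma had 1 of the 9, Cebpe, which was higher in the knockout, against 8.11% of all genes (5.03% in the higher and 3.08% in the lower direction). Knockout and WT arrays were fully apart for 1 of the 9, again Cebpe, against 13.3% of all genes (7.96% with the knockout above and 5.32% with it below). Of the 9 differences 4 were positive and 5 negative, with a median of -0.0064, and the median of all genes was 0.018. These shares do not set the factors apart from the background. For 6 of the 9 the 95% interval of the difference, which is not adjusted for the number of genes, excluded a change of 1.5-fold (log2 0.58) in either direction. For the other 3, Cebpe, Irf8 and Id2, it did not. Of the 6, Cebpb (6.37), Klf4 (6.33) and Cebpd (6.26) had means near that of the median gene (6.29). RMA compresses differences of dim probe sets, so these intervals concern array values and may understate a change in RNA.

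**Figure D1:**
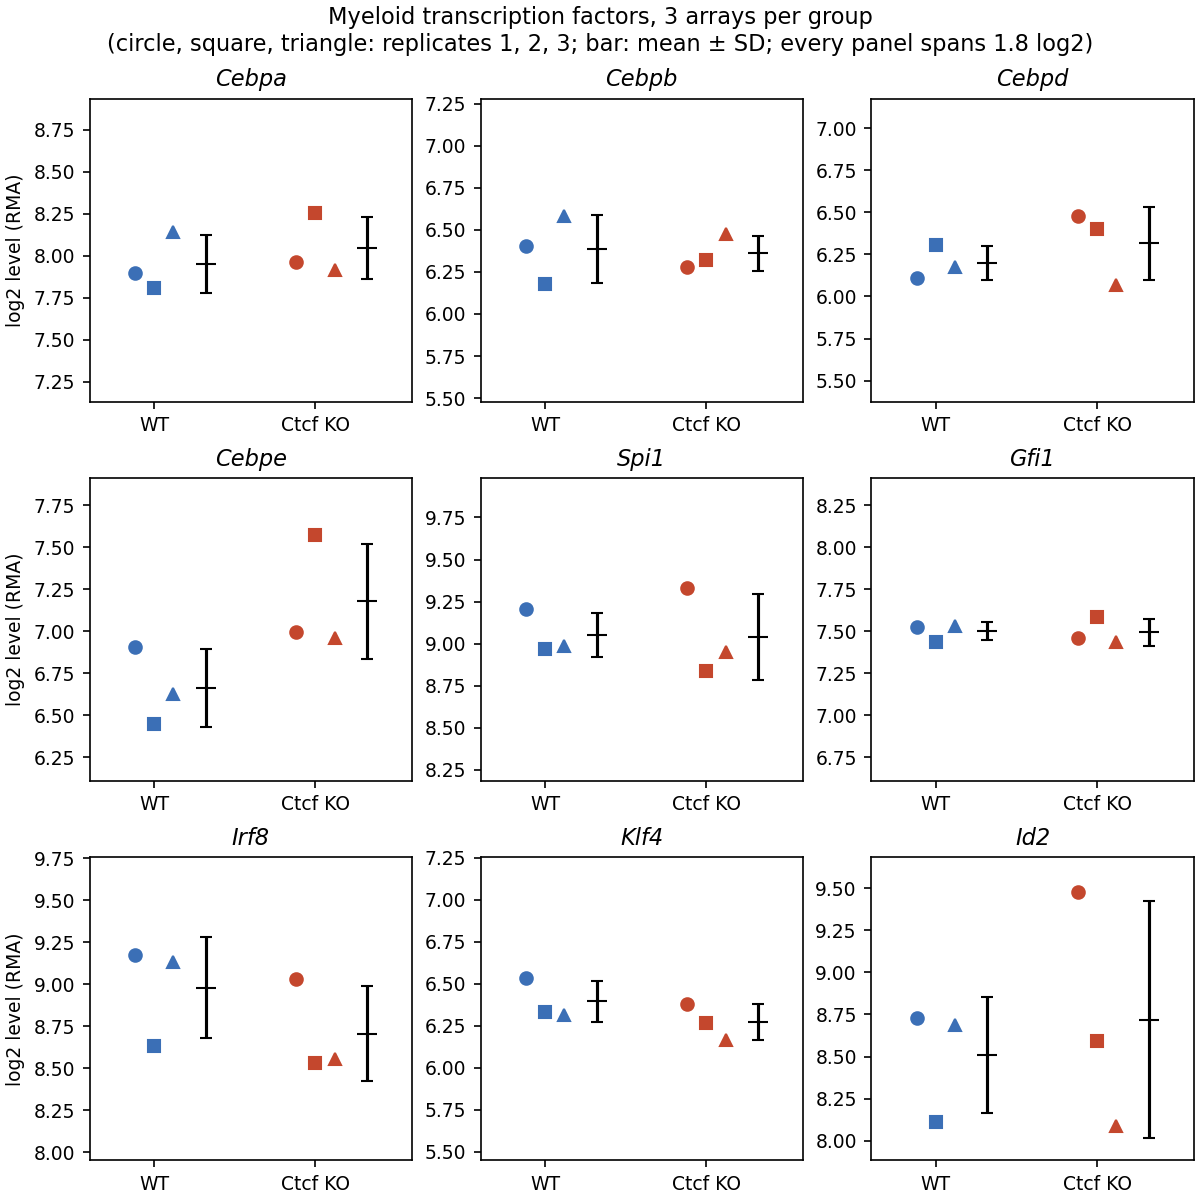
Log2 level of each factor on the 3 WT (blue) and 3 knockout (red) arrays, with mean ± SD; every panel spans the same range. Only Cebpe has all knockout arrays above all WT arrays, and Id2 has the widest spread, from 8.09 to 9.48.

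Cebpe, a driver of late granulocyte differentiation, had log2 levels of 6.91, 6.45 and 6.63 on WT replicates 1 to 3 and 7.00, 7.57 and 6.96 on knockout replicates 1 to 3. All 3 knockout arrays were above all 3 WT arrays, but the gap between the lowest knockout and the highest WT array was 0.053. The mean went from 6.66 ± 0.23 to 7.18 ± 0.34 (SD, n = 3 each), a difference of 0.52 (SE 0.19, 95% interval 0.086 to 0.95) or 1.43-fold. The limma adjusted p was 0.551 and the exact two-sided permutation p 0.1. Knockout replicate 2 was the highest array, and without it the difference was 0.32, while leaving out any of the other arrays gave 0.41 to 0.64. The unadjusted limma p was no longer under 0.05 in 3 of the 6 fits with 1 array left out, those without WT replicate 2 (0.084), WT replicate 3 (0.057) or knockout replicate 2 (0.078). In bulk RNA a change in the number of cells that express a gene and a change in RNA per cell cannot be told apart.

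The granulocyte genes that C/EBP factors and Gfi1 are known to control had differences in both directions. Of 19 genes, 5 were higher and 6 lower at an unadjusted p under 0.05 by limma, or 26.3% and 31.6% against 5.03% and 3.08% of all genes, none passed over all genes, and the median difference was -0.19. This list and those below were chosen with earlier results of these data known, so a share above that of all genes is not independent of the choice. The higher ones are the primary granule genes Elane, Mpo, Ctsg and Prtn3 and the progenitor gene Ms4a3. Elane, neutrophil elastase, stood at 11.53, 10.95 and 11.51 in WT and 12.73, 12.64 and 12.24 in the knockout (difference 1.21, SE 0.19, limma adjusted p = 0.104). Prtn3, proteinase 3, differed by 0.71 (SE 0.13, limma adjusted p = 0.158). On knockout replicate 2, where Cebpe was highest, Mpo, Ctsg and Prtn3 were also at their highest, while Elane and Ms4a3 were highest on knockout replicate 1. On WT replicate 2, where Cebpe was lowest, Elane, Ctsg and Ms4a3 were at their lowest, while Mpo (10.78) and Prtn3 (10.27) were lowest on WT replicate 1, the WT array with the highest Cebpe. Among the genes of later granules, which C/EBP epsilon is known to activate, Ngp differed by -2.44 (SE 0.52, limma adjusted p = 0.241) and Camp, the cathelicidin gene, by -1.46 (SE 0.48, limma adjusted p = 0.508). Their levels differed widely within WT, with Ngp at 11.49, 9.08 and 10.59. The receptors Csf3r, for G-CSF, and Il6ra, for interleukin 6, differed by -0.15 (SE 0.14) and -0.11 (SE 0.12), with overlapping groups.

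**Figure D2:**
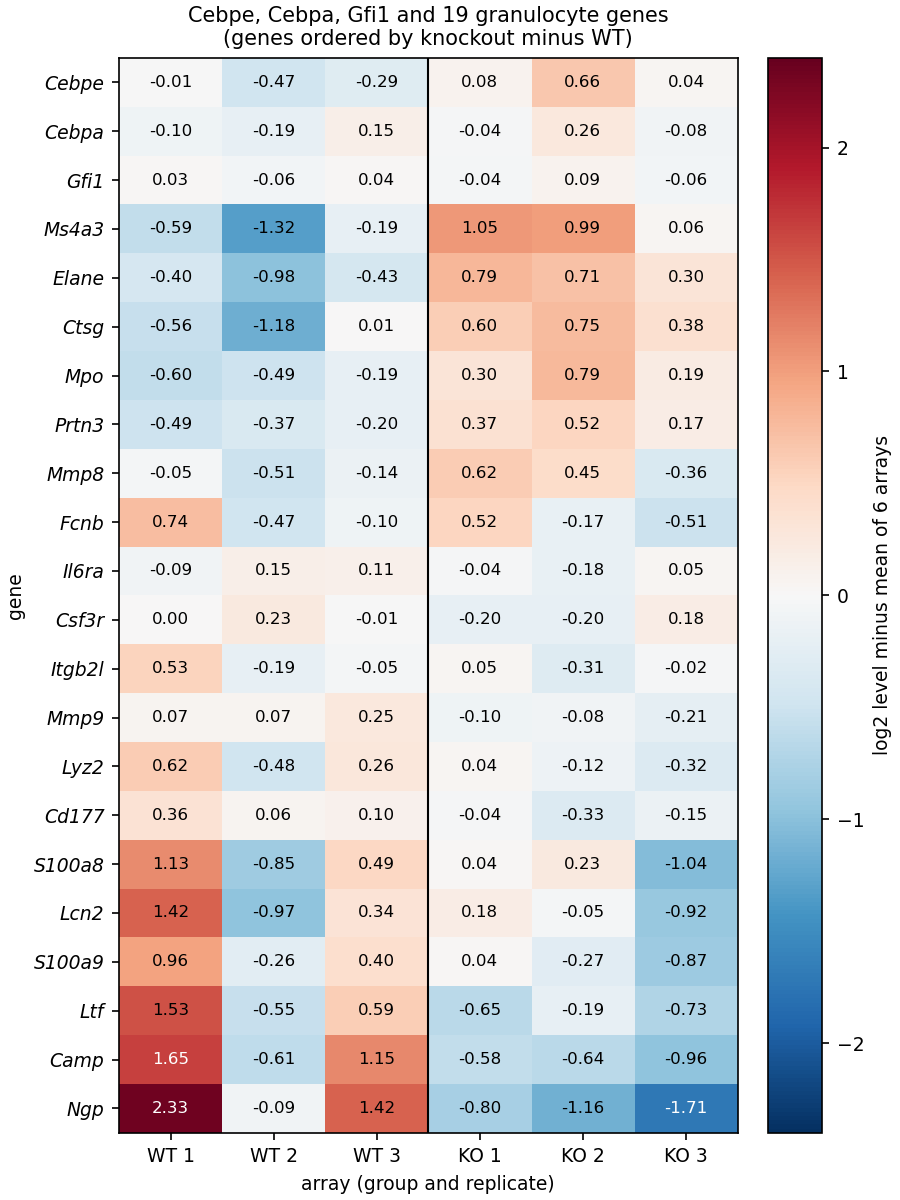
Log2 level minus the gene's mean over the 6 arrays for Cebpe, Cebpa, Gfi1 and 19 granulocyte genes, one column per array, red above and blue below the mean. Cebpe is higher on the knockout arrays, as are Ms4a3 and the primary granule genes Elane, Ctsg, Mpo and Prtn3. Ngp at the bottom is lower, and Gfi1 is nearly flat.

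Markers of other cells were read beside Cebpe. The 9 measured of 9 mature neutrophil markers summed to between 10.23 and 12.25 in WT and between 9.66 and 10.41 in the knockout, with overlap. Ngp was the brightest of them on the WT arrays and weighed most in the WT sums. At an unadjusted p under 0.05 4 of them were lower and 0 higher, against 3.08% and 5.03% of all genes, and none was called. These 4, Ltf, Camp, Ngp and S100a9, are also among the 6 lower granulocyte genes above. Ly6g, which defines the cells, had a positive difference (0.25, SE 0.33), with 6.35, 5.36 and 6.07 in WT and 6.89, 5.72 and 5.92 in the knockout, as had Mmp8 (0.47, SE 0.25) and Cxcr2 (0.12, SE 0.13). The 8 measured of 8 mast cell and basophil markers summed to between 9.75 and 10.34 in WT and between 10.40 and 11.07 in the knockout. Of these 7 had a positive difference, and Hdc, the histamine-forming enzyme, was called (2.32, SE 0.26, limma adjusted p = 0.0309), with its highest array again knockout replicate 2 at 9.06. Their part in the Cebpe result was not tested.

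Cebpa, the factor that opens the granulocyte and monocyte path, was at 7.90, 7.81 and 8.14 in WT and 7.96, 8.26 and 7.92 in the knockout. The groups overlapped, with a difference of 0.096 (SE 0.14, 95% interval -0.22 to 0.41, limma adjusted p = 0.911), and without knockout replicate 2 the sign turned, to -0.010. Cebpb, the family member used in emergency granulopoiesis and macrophages, was at 6.40, 6.18 and 6.58 in WT and 6.28, 6.32 and 6.48 in the knockout. It differed by -0.027 (SE 0.13, 95% interval -0.32 to 0.27), and the sign turned without WT replicate 3 or knockout replicate 1. Cebpd, an inflammation-responsive member, was at 6.11, 6.31 and 6.18 in WT and 6.48, 6.40 and 6.07 in the knockout (difference 0.12, SE 0.13, 95% interval -0.19 to 0.42). Knockout replicate 3 was below all WT arrays for this gene and the other two knockout arrays above them; the difference was 0.037 without knockout replicate 1 and 0.24 without knockout replicate 3.

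As the deleted gene encodes a DNA-binding factor, the promoters of the factors were read for the core of its known motif. The set of RefSeq promoters (GRCm38.p6) used here held 6 of the 9. It held none for Cebpd, Cebpe and Spi1, so these were not searched. This core reads CA, then C or G, then C or T, then AG, then A or G, then G or T, then GGC. It was chosen with the sequences in view and searched on both strands in the 250 bases before each start, where 0.928% of the 32851 promoters hold it. Of the 6 factors, Cebpa and Cebpb do. A looser form, searched first, left the 4 positions with alternatives open to any base and was in 5.33% of promoters and again, of the 6 factors, in Cebpa and Cebpb. The 2 promoters are shown because they carry a match while neither gene was called, with the match in capitals, 5′ to 3′ on the gene's strand. Cebpa lies at chr7:35119043-35119292 (plus strand), with the match starting 55 bases before the start, and Cebpb at chr2:167688665-167688914 (plus strand), with a match 245 bases before it.
Cebpa promoter: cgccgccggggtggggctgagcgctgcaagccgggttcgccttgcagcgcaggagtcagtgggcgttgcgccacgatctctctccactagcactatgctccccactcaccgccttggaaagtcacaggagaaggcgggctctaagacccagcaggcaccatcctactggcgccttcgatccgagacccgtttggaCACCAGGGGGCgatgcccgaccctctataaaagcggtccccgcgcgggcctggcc
Cebpb promoter: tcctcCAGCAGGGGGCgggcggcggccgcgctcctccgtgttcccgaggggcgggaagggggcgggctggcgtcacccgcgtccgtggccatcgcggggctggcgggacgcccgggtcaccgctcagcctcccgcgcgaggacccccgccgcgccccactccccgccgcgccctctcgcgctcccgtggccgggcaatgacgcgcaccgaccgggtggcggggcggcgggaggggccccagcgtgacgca
Both stretches are rich in G and C, at 66.4% for Cebpa and 81.6% for Cebpb against a median of 52.4% over all promoters. This is not particular to the 2, as all promoters of the 6 factors lay between 54% and 81.6%, with Klf4 at 74%. A match is a description of letters and not a bound site. Over 201 measured genes with the core in a promoter the median difference was -0.012 and 6.97% had an unadjusted p under 0.05 by limma, against 0.022 and 8.19% for measured genes without it.

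Spi1, which encodes PU.1, was at 9.20, 8.97 and 8.98 in WT and 9.33, 8.84 and 8.95 in the knockout. Both the highest and the lowest of the 6 arrays were knockout arrays. The difference was -0.013 (SE 0.15, 95% interval -0.35 to 0.32, limma adjusted p = 0.992), and its sign turned without WT replicate 1, knockout replicate 2 or knockout replicate 3. Gfi1, the repressor that acts within the granulocyte branch, had the narrowest range of the 9, from 7.44 to 7.58. It was at 7.53, 7.44 and 7.53 in WT and 7.46, 7.58 and 7.44 in the knockout, a difference of -0.0064 (SE 0.10, 95% interval -0.24 to 0.23). Its sign turned without any one of WT replicate 1, WT replicate 3, knockout replicate 1 and knockout replicate 3.

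Irf8, which favours monocytes and dendritic cells over granulocytes, was at 9.18, 8.63 and 9.13 in WT and 9.03, 8.53 and 8.56 in the knockout. The groups overlapped, since WT replicate 2 was close to the lower knockout arrays and knockout replicate 1 was close to the other WT arrays. The difference was -0.27 (SE 0.19, 95% interval -0.70 to 0.15), with a limma adjusted p of 0.771 and an exact two-sided permutation p of 0.2. It was negative under all 13 alternatives, between -0.45 without WT replicate 2 and -0.18 without WT replicate 1. Its unadjusted limma p was under 0.05 in 2 of the 6 fits with 1 array left out, 0.034 without WT replicate 2 and 0.041 without knockout replicate 1. A second, dimmer probe set of Irf8 differed by -0.20, from 6.65 ± 0.16 to 6.44 ± 0.18 (SD, n = 3 each). Klf4, a factor of monocyte differentiation, was at 6.54, 6.33 and 6.31 in WT and 6.38, 6.27 and 6.17 in the knockout (difference -0.12, SE 0.11, 95% interval -0.38 to 0.14), again with overlap, and the difference was -0.053 without WT replicate 1. By the root mean square distance of profiles centred on their mean, the genes nearest to Irf8 among 11089 brighter than the median gene were Det1 (0.074), Ccdc90b (0.082) and Trim56 (0.088), all on the log2 scale.

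Monocyte genes known to be controlled by PU.1 and Irf8 gave 1 higher and 0 lower of 15 at an unadjusted p under 0.05, a share of 6.67% against 5.03% of all genes higher, with a median difference of -0.018 and none called. The higher one was Ncf1, a subunit of the phagocyte oxidase (0.29, SE 0.11, limma adjusted p = 0.578). Cybb, its membrane partner, differed by -0.63 (SE 0.37), with knockout replicate 3 at 7.02 and the other 5 arrays between 8.49 and 8.84. Csf1r, the receptor of macrophage colony-stimulating factor, differed by 0.020 (SE 0.17).

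**Figure D3:**
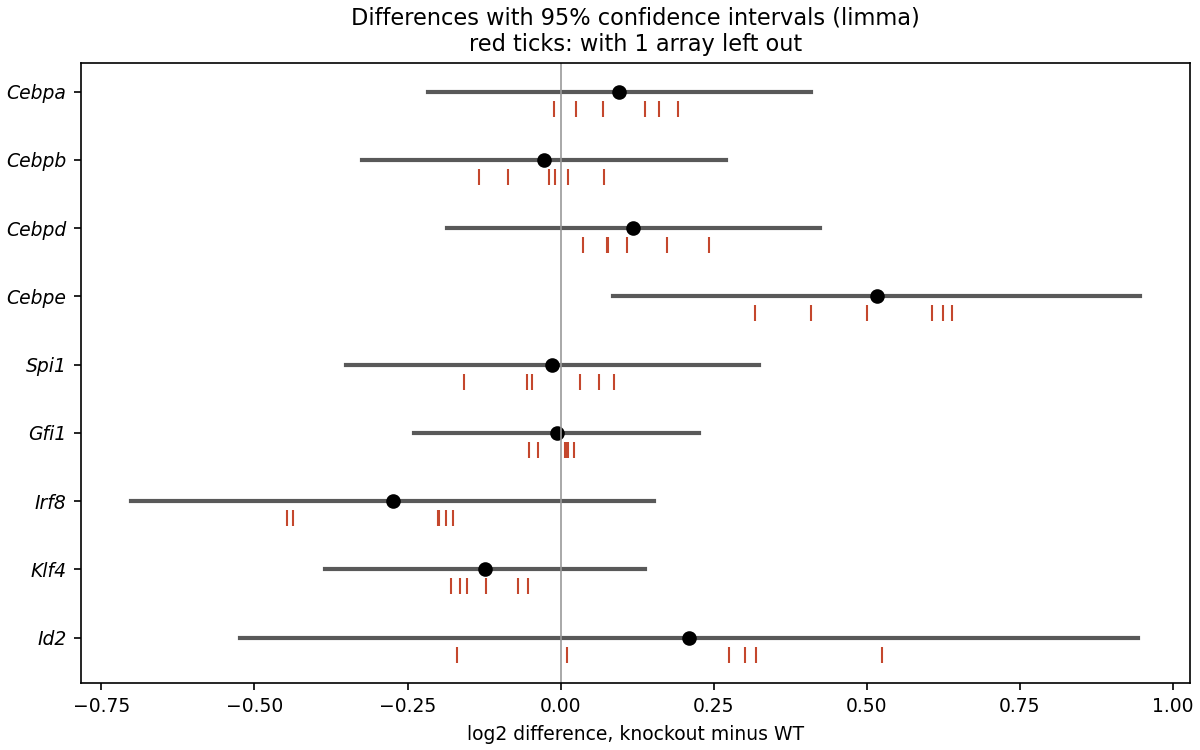
Log2 difference, knockout minus WT, of each factor (black point) with its 95% interval (grey line), and the difference with each array left out in turn (red ticks). Only the interval of Cebpe lies wholly above 0; the ticks of Cebpa, Cebpb, Spi1, Gfi1 and Id2 fall on both sides of 0.

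Id2, the inhibitor of E proteins that is needed for innate lymphoid and some dendritic cells, varied most among the 9. It stood at 8.73, 8.11 and 8.69 in WT and 9.48, 8.59 and 8.09 in the knockout, so that the highest and the lowest arrays were both knockout arrays. The SD was 0.35 in WT and 0.70 in the knockout. The difference was 0.21 (SE 0.32, 95% interval -0.52 to 0.94, limma adjusted p = 0.917), and it became -0.17 without knockout replicate 1. Id2 thus had the widest interval of the 9.

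The 3 genes with the profile nearest to Id2, among 11089 brighter genes, were H2-Eb1 (distance 0.050), H2-Aa (0.093) and H2-Ab1 (0.107), which encode chains of the MHC class II molecules that present peptides to T cells. The fourth was Selenom, at 0.162, and the median gene was at 0.485. H2-Eb1 stood at 8.47, 7.81 and 8.30 in WT and 9.09, 8.24 and 7.70 in the knockout, high and low on the same arrays as Id2, with a difference of 0.15 (SE 0.32). Of 10 measured class II genes, a list written after this was seen, 7 were highest on knockout replicate 1. These 7 include the 3 chains above, which share that array with Id2 because they were picked by likeness to it. They also include H2-Eb2, at 6.38 there against 6.37 on WT replicate 1. The share of all genes highest on that array was not counted, so the count is a description only. Only the 3 chains were among the 10 nearest to Id2. Ciita, the activator of class II genes, was at distance 0.399 and ranked 1502. H2-DMb2 and H2-Ob, subunits of the peptide-loading factors, differed by 1.07 (SE 0.22) and -0.82 (SE 0.18) without overlap between groups. Neither passed (limma adjusted p = 0.209 and 0.265). The value of H2-DMb2 is uncertain because H2-DMb1 is a near-identical copy. H2-DMb1 differed by 0.54 (SE 0.20, limma adjusted p = 0.548), also without overlap.

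**Figure D4:**
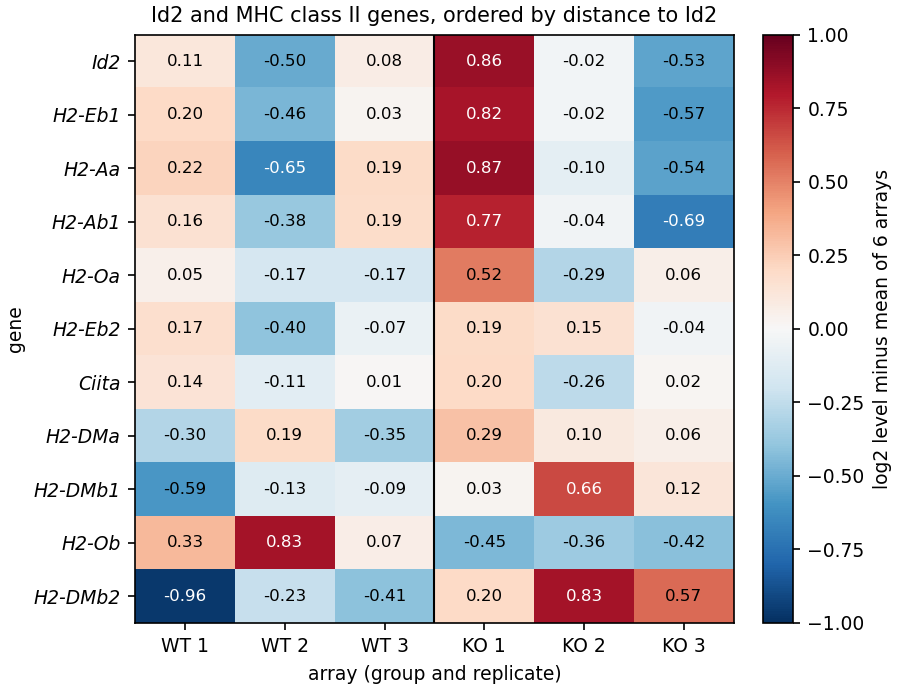
Log2 level minus the gene's mean over the 6 arrays for Id2 and 10 MHC class II genes, ordered by distance to Id2, one column per array. Id2, H2-Eb1, H2-Aa and H2-Ab1 are all high on knockout replicate 1 and low on WT replicate 2 and knockout replicate 3.

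Marker levels beside Id2 were as follows. The 6 measured of 7 dendritic cell markers summed to between 9.98 and 10.16 in WT and between 9.76 and 9.84 in the knockout. Cd209a (difference -0.29, SE 0.14) was the brightest of them on every array and weighed most in these sums. Of the 6 differences 5 were negative and 1, that of Siglech, was positive. None of the 6 reached an unadjusted p under 0.05. On knockout replicate 1, where Id2 was highest, 2 of the 6 were at their highest, Siglech (6.69) and Xcr1 (6.61), and 1 at its lowest, Cd209a (8.86). B cells also carry class II molecules, and the 8 measured of 9 B and plasma cell markers summed to between 14.12 and 14.78 in WT and between 13.39 and 14.20 in the knockout, and 6 were lower and 0 higher at an unadjusted p under 0.05, against 3.08% and 5.03% of all genes. None of the B and plasma cell markers was called. The 9 measured of 9 monocyte and macrophage markers summed to between 9.83 and 10.26 in WT and between 9.77 and 10.07 in the knockout, and the 9 measured of 10 T, NK and innate lymphoid markers to between 10.50 and 11.07 and between 11.02 and 11.49. Nkg7 was the brightest of these lymphoid markers on every array and weighed most in their sums. It differed by 0.68 (SE 0.20, limma adjusted p = 0.429). Of the 9 lymphoid markers, 3 rose, Nkg7 among them, and 6 fell, and their median difference was -0.069. The part of all these markers in the spread of Id2 was not tested.

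The partners of Id2 read here were the E proteins Tcf3, Tcf4 and Tcf12 and the other Id genes. Of these 6, 0 were higher and 1 lower at an unadjusted p under 0.05 by limma. The shares of all genes were 5.03% higher and 3.08% lower. The median difference of the 6 was -0.010. The lower one was Id4 (-0.30, SE 0.12, limma adjusted p = 0.565). Its knockout arrays were all below the WT arrays, as for 5.32% of all genes. Id1 differed by 0.23 (SE 0.15) and Tcf3 by -0.033 (SE 0.14). Among 6 partners and regulators of C/EBP proteins 1 was lower and 0 higher at the unadjusted p under 0.05, against the same shares of all genes. This was Ddit3, the C/EBP homologous protein of the stress response, at 7.40, 6.98 and 7.07 in WT and 6.81, 6.66 and 6.73 in the knockout (-0.42, SE 0.13, limma adjusted p = 0.477). Cebpg, which dimerises with the other family members, differed by 0.11 (SE 0.13).

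Factors that work with or against the 9 were read in the same way, and their counts stand against 5.03% of all genes higher and 3.08% lower at an unadjusted p under 0.05. Of 14 partners of PU.1 and progenitor factors 0 reached an unadjusted p under 0.05 by limma and 0 were called, with a median of -0.062; Runx1 differed by -0.13 (SE 0.12) and Myb by -0.086 (SE 0.11). Of 10 other monocyte and dendritic cell factors 1 was higher, Tfec (0.49, SE 0.19, limma adjusted p = 0.578), and 0 lower, with a median of -0.063. Of 11 erythroid, megakaryocyte and mast cell factors 1 was higher and 0 lower, with a median of -0.029. The higher one was Gata2, a rival of PU.1 that is needed in stem and mast cells, at 8.95, 8.91 and 9.01 in WT and 9.29, 9.35 and 9.27 in the knockout (0.35, SE 0.099, limma adjusted p = 0.418), and its groups did not overlap. Of 11 lymphoid factors 1 was lower, Bcl11b (-0.39, SE 0.13, limma adjusted p = 0.520), 0 were higher, and the median was -0.24. All knockout arrays were below all WT arrays for 3 of the 11, Ebf1, Bcl11b and Lef1 (27.3% against 5.32% of all genes). Lef1 differed by -0.53 (SE 0.31), with WT replicate 1 at 7.55 and the other 5 arrays between 6.13 and 6.27. Ebf1, the B lineage factor, differed by -0.95 (SE 0.45), with WT replicate 1 at 7.76 and the other 5 arrays between 5.37 and 5.90.

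The 3 measured genes on each side of every factor in RefSeq's gene order, 54 in all, were read because CTCF acts over chromosome neighbourhoods. None was called. At an unadjusted p under 0.05 by limma 0 were higher and 1 lower, a share of 1.85% against 8.11% of all genes, and groups were apart for 9.26% against 13.3%. The lower one was 4930579G18Rik, a long non-coding RNA gene next to Cebpe on chromosome 14. It stood at 6.92, 7.04 and 6.78 in WT and 6.54, 6.15 and 6.47 in the knockout, a difference of -0.53 (SE 0.14, limma adjusted p = 0.365) opposite in sign to that of Cebpe. On the other side of Cebpe, Slc7a8, an amino acid transporter gene, differed by 0.22 (SE 0.11), also without overlap. Cebpg, the neighbour of Cebpa on chromosome 7, had overlapping groups.

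**Figure D5:**
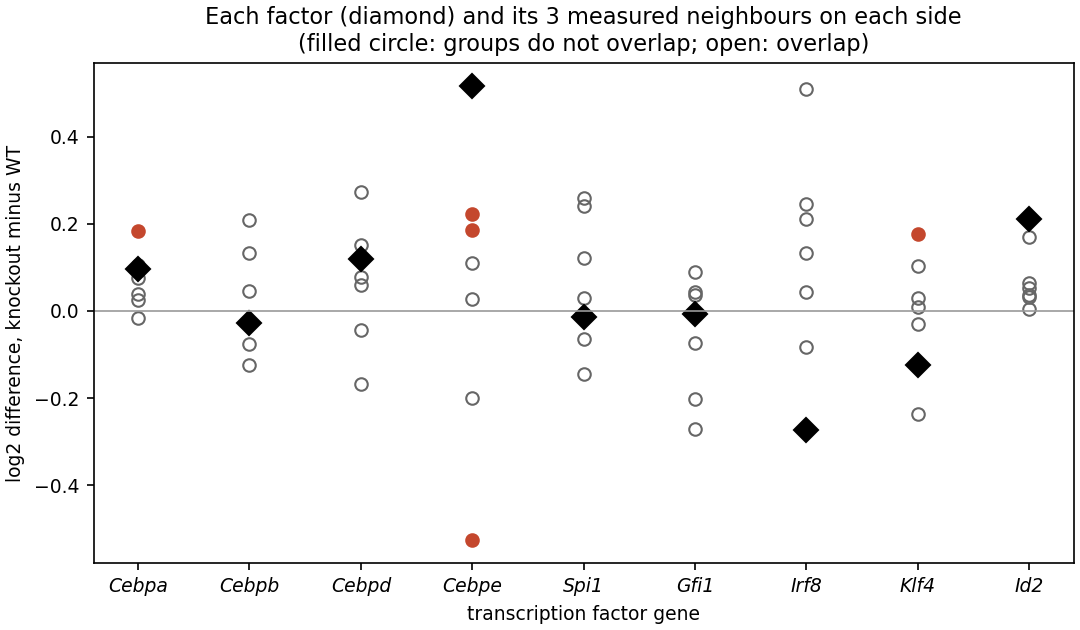
Log2 difference, knockout minus WT, of each factor (diamond) and of the 3 measured genes on each side of it (circles, filled where the groups do not overlap). Filled are 9.26% of the 54 neighbours, against 13.3% of all genes with groups apart. Around Cebpe 3 of 6 are filled, 4930579G18Rik (the lowest, at -0.53), Cdh24 and Slc7a8. Around Cebpb, Cebpd, Spi1, Gfi1, Irf8 and Id2 none is. The contrast between loci was seen in the values and was not tested.

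The profiles nearest to Cebpe by the same distance were those of Med10 (0.059), Sephs2 (0.107) and Gda (0.116). Across the 9 factors knockout replicate 1 and knockout replicate 2 each held the highest level of 3, WT replicate 1 of 2 and WT replicate 3 of 1. The lowest level lay on knockout replicate 3 for 4 factors, on WT replicate 2 for 3 and on knockout replicate 2 for 2. No array was thus highest or lowest for all factors.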

How the data were processed

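The values, as deposited by the authors, are RMA probe set summaries on the log2 scale. The submitters' processing notes name RMA and oligo, an R package, with no version. RMA normalizes arrays by quantiles and compresses differences of dim probe sets. The genome build is not given in the sources used here. Of 41345 probe sets 23521 had 1 symbol in GEO's platform annotation, 1814 several and 16010 none here; the brightest per gene gave 22180 genes, without a filter on low values. The comparison used lmFit and eBayes of limma 3.58.1 (R 4.3.3) with the group as term, and genes were called at an adjusted p under 0.05. Intervals are from the moderated fit. On simulated data, 10 runs over 22180 genes, 96.6% of changes of 1 on the log2 scale were recovered and 99.9% of changes of 2, with 6.61% false calls. Each run had 200 changed genes and independent normal noise. In the data 16 genes were called, and Elane (1.21) and Ctcf (-0.82) were not. The simulated recovery therefore does not give the power of the comparison for the 9 factors. Members and lists were chosen with earlier results of these data known. Named are all members, Ctcf, up to 2 genes per direction of each list by p, neighbours by p and nearest profiles; other genes were named after their values were seen. Promoters are RefSeq's (GRCm38.p6). Correlations of deviations from group means between arrays with equal replicate numbers were 0.29, 0.016 and -0.14. Between unequal numbers the highest were 0.25 (WT replicate 2 with knockout replicate 3) and 0.16 (WT replicate 3 with knockout replicate 2). These values do not settle whether arrays were paired. Alternatives were empirical Bayes with trend and robust settings, array weights, brighter genes, quantile normalization, centring, the mean of probe sets, a replicate block, a threshold of 0.1 and each array left out.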

Additional observations from a re-analysis of the deposited data

How the results depend on the processing

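None of the 9 factors was called in the main fit or under any of the 14 alternatives run, and the sign of Cebpe, Irf8, Klf4 and Cebpd was the same throughout; Cebpd has no value among the brighter genes. With 1 array left out, differences ran from -0.010 to 0.19 for Cebpa, -0.13 to 0.070 for Cebpb, -0.16 to 0.086 for Spi1, -0.052 to 0.022 for Gfi1 and -0.17 to 0.53 for Id2, so their signs are not settled. They ran from 0.037 to 0.24 for Cebpd and -0.18 to -0.053 for Klf4. The factors at an unadjusted p under 0.05 numbered 0 to 2 in these fits: 0 without WT replicate 3 or knockout replicate 2, 1 without WT replicate 2, which was Irf8 and not Cebpe, and 2 without knockout replicate 1, where Irf8 joined Cebpe. Of all genes 16 were called, 25 with trend and robust settings, 26 at a threshold of 0.1, 7 with the replicate block and 0 to 8 with 1 array left out. The replicate block, which takes equal replicate numbers as pairs, changed no call among the factors. Not every array correlated best with its own number. Centring moved the median of all genes from 0.018 to -0.038. No signal over background was used, as the deposited values carry no detection call.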
